A study of Rattus norvegicus with 3 samples.

Results

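The S100 genes encode small calcium-binding proteins, and 10 of them were looked for by name on 3 two-colour whole-genome rat arrays, namely S100a1, S100a3, S100a4, S100a6, S100a8, S100a9, S100a10, S100a11, S100a13 and S100b. Probes were taken where the gene name in the array's annotation equalled a member's symbol, whatever the case of its letters and without the endings that mark predicted genes. This gave 15 probes of 41012 on the array, for 9 genes of 35561 distinct names. S100a11 had no probe under its name.

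On each array, Cy3-labelled RNA from the rat induced pluripotent stem (iPS) cell line M13 was set against the same Cy5-labelled RNA mix of adult rat cells. The mix, named mix1, combined cultured bone marrow cells, which grew in serum-containing medium, with cultured primary fibroblasts of the ear. iPS cells are adult cells reprogrammed to a state like that of embryonic stem cells. The M13 cells were 1 line, were untreated, and were kept on a feeder layer of irradiated mouse embryonic fibroblasts. The proportions of the mix and the age and strain of the rats were not given in the sources used here. The 3 iPS M13 samples formed 1 group, all were labelled with the same dye and no dye was swapped, so an effect of the dye and of the cells cannot be told apart. Nothing in the labels states that they were separate cultures, so p-values reflect the spread between these 3 samples alone, and that spread may be technical. The arrays shared 1 slide and 1 scan date. Of all probe spots, 53.8% to 61.1% were well above background in the iPS M13 channel and 52.9% to 61.5% in the mix1 channel. With 3 arrays, precision is limited throughout. Mouse RNA carried over from the feeder cells can bind rat probes, and its part in the iPS M13 signals was not tested.

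An S100 protein is built from a pair of EF-hands, helix-loop-helix units that bind calcium, and most S100 proteins work as dimers. Binding of calcium exposes a surface that holds partner proteins such as annexins, myosin and ubiquitin ligase components. S100a10 is the exception that no longer binds calcium and holds annexin A2 constantly. S100a8 and S100a9 form calprotectin, the abundant cytosolic protein of neutrophils, and S100b is used as a marker of glia. S100a4 and S100a6 are known from fibroblasts and other motile mesenchymal cells. Some S100 proteins are released from cells and bind receptors such as Ager and Tlr4.

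Each probe was a single strand of 60 bases. The probes of S100a1, S100a4 and S100a6 shown next share a run of 12 bases, marked by capitals, although they belong to 3 genes. They are shown with the S100a8 and S100a9 probes, which carry no capitals because they do not hold the run. All are written 5′ to 3′.
S100a1 upstream probe: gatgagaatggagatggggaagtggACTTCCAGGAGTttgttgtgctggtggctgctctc
S100a4 upstream probe: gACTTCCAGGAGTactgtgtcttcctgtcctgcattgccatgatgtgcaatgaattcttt
S100a6 mRNA probe: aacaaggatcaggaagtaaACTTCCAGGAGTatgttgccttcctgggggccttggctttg
S100a8 mRNA probe: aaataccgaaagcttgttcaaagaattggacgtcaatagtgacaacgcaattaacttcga
S100a9 probe: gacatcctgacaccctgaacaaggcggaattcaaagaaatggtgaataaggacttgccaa

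The run was found in 5 of the 41012 probes, 0.0122%, and the other 2 carried the names Map2k2 and Dnajb9. It was chosen after the S100 probe sequences were compared with each other, and is given as a description of how alike the probes are. Whether RNA of a family member bound a probe of another member was not tested.

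S100a4 and S100a6 also had a probe each on the strand opposite to their messenger RNA. These are shown because they gave log2 ratios of their own. The capitals mark the bases that are the reverse complement of the same gene's probe above.
S100a4 opposite-strand probe: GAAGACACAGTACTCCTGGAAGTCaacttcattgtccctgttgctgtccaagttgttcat
S100a6 opposite-strand probe: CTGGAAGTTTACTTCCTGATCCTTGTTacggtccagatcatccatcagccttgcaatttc

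For S100a6 the 27 marked bases correspond to the overlap of both probes' positions in the array's annotation. For S100a4 24 bases are marked, although the positions given for its probes do not overlap. Per the file headers, all probe positions are on build rn3. The exon each probe lies in is not given here, since no gene annotation of that build was used.

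Of the 15 probes, 10 were measured, meaning well above background in the same RNA on all 3 arrays, and these covered 6 genes, S100a1, S100a3, S100a4, S100a6, S100a10 and S100a13. All 10 were called lower in iPS M13, and 0 higher. A probe was called lower or higher at an adjusted p under 0.05 and a difference of at least 2-fold. Over all 24149 probes tested on the arrays 25.1% were called lower and 18.5% higher. The median of the log2 ratios, always given as iPS M13 over mix1, was -3.40 for the 10 S100 probes and -0.02 for all probes tested. Only probes that passed the filter on dim signals enter these counts, and the 5 probes of S100a8, S100a9 and S100b did not pass it. S100a3 and the S100a4 opposite-strand probe passed through mix1 alone, so their calls are no support. Of the 10 measured probes, 8 were above background in both RNAs on all arrays. In RNA from a population of cells, fewer cells of a type and less RNA per cell cannot be told apart. Signals below are mean spot brightness in scanner units with no background subtracted, in the order of replicates 1, 2 and 3. They are compared between the RNAs for 1 probe at a time, since the brightness of different probes is not on a common scale. Sums over a marker list set the same probes side by side in both RNAs, and are carried by the brightest probes of the list. Neither the signals nor the sums were scaled between the dyes. On replicate 1 the negative control spots had a median of 76.0 in iPS M13 and 60.9 in mix1.

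**Figure D1:**
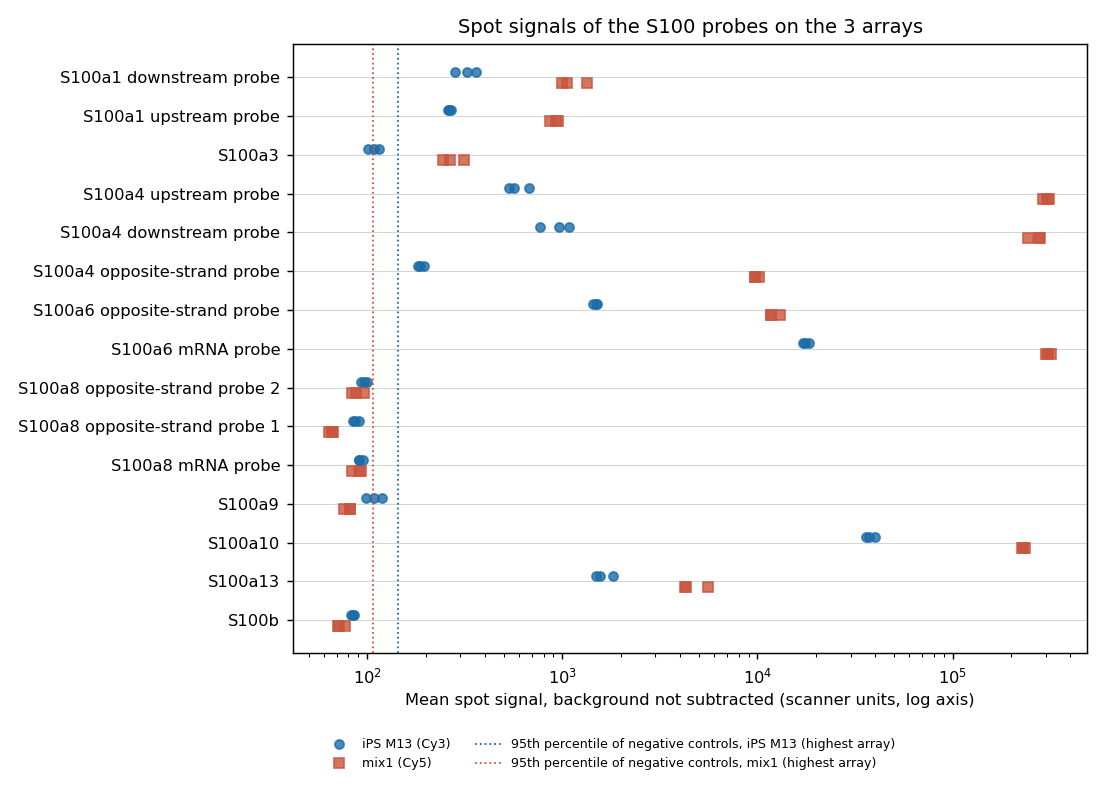
Mean spot signal in scanner units (log axis) of each of the 15 S100 probes, with 1 point per array for iPS M13 (circles) and mix1 (squares), and dotted lines at the highest array's 95th percentile of the negative control spots in each RNA. The mix1 points lie right of the iPS M13 points for all 10 measured probes, while the points of S100a8, S100a9 and S100b lie left of the iPS M13 line.

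S100a4, a calcium-dependent binder of non-muscle myosin that is widely used as a fibroblast marker, had the lowest ratios of the measured members. Its upstream probe, at chr2:182836604-182836663 on the plus strand, read 673, 565 and 532 in iPS M13 and 310823, 304617 and 292204 in mix1. The downstream probe, at chr2:182836765-182836824 on the same strand, read 1078, 963 and 768 in iPS M13 and 280458, 277899 and 242983 in mix1. All mix1 values lay far above all iPS M13 values on both probes, and both RNAs were above background on every array, so S100a4 was detected in iPS M13 too. The log2 ratio of the upstream probe was -9.63, -9.76 and -9.95 on the 3 arrays, a mean of -9.78 ± 0.16 (SD, n = 3; limma, adjusted p = 1.10e-06), or 878-fold higher in mix1. The log2 ratio of the downstream probe was -8.90 ± 0.21 (SD, n = 3; limma, adjusted p = 1.88e-06), or 477-fold higher in mix1. Only 10 of the 24149 probes tested, this one included, had a ratio at or below that of the upstream probe, and 23 at or below that of the downstream probe. Within S100a4 the downstream probe lay 0.88 ± 0.07 (SD, n = 3) above the upstream probe on the log2 scale and did so on 3 of 3 arrays, so the size of the difference depends on the probe.

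The S100a4 opposite-strand probe, at chr2:182837227-182837286 on the minus strand, read 187, 195 and 182 in iPS M13, where it was well above background on 2 of 3 arrays. In mix1 it read 9744, 10130 and 9691. It passed the filter through mix1 alone, so its call is no support. The values did not overlap, and the log2 ratio was -6.56 ± 0.14 (SD, n = 3; limma, adjusted p = 1.57e-06). This ratio was 2.34 ± 0.17 (SD, n = 3) above that of the downstream probe. Whether these spots bound RNA of the opposite strand or copies of the messenger RNA made in the other direction was not tested.

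Myh9, the heavy chain of the non-muscle myosin that S100a4 binds, was also lower in iPS M13, at -2.94 ± 0.02 (SD, n = 3; limma, adjusted p = 7.41e-07) on the log2 scale. Fibroblast markers moved the same way as S100a4. All 17 measured probes of the 12 fibroblast genes listed were lower, where 25.1% of all probes tested were. Their median was -7.15, with a range from -10.91 for a Col1a1 probe to -4.77 for Pdgfra. The summed signal of these probes was 29175 to 32176 in iPS M13 and 2758781 to 2868243 in mix1. Thy1 and Postn were not well above background in iPS M13 on any array and passed the filter through mix1 alone. Their calls, and that of any other probe without both RNAs above background on all arrays, are no support. The 14 probes above background in both RNAs on all arrays had a median of -7.18. The part of the fibroblasts in the S100a4 ratio was not tested.

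S100a6, also called calcyclin, is known from proliferating cells and binds the ubiquitin ligase component Cacybp. Its mRNA probe, at chr2:182846235-182846294 on the plus strand, read 18258, 17085 and 17505 in iPS M13 and 307958, 320755 and 301983 in mix1. It was bright in both RNAs, with no overlap between them. The log2 ratio was -4.49, -4.53 and -4.55, a mean of -4.53 ± 0.03 (SD, n = 3; limma, adjusted p = 5.97e-07), or 23.0-fold higher in mix1. The S100a6 opposite-strand probe, at chr2:182846202-182846261, read 1440, 1478 and 1497 in iPS M13 and 11762, 13102 and 11720 in mix1, with no overlap. Its log2 ratio was -3.86 ± 0.0054 (SD, n = 3; limma, adjusted p = 5.93e-07), which was 0.67 ± 0.02 (SD, n = 3) above that of the mRNA probe on 3 of 3 arrays.

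Cacybp, the calcyclin-binding protein, went the other way. Its probe read 69887, 73695 and 69266 in iPS M13 and 14675, 17691 and 15103 in mix1. The log2 ratio was 1.61 ± 0.04 (SD, n = 3; limma, adjusted p = 3.87e-06). The iPS M13 values all lay above the mix1 values, and Cacybp was the only gene of the 18 measured on the partner list that was called higher. Sugt1, a cochaperone that also binds S100a6, was not called at its 2 probes, which stood at 0.12 ± 0.02 and 0.52 ± 0.03 (SD, n = 3), and the second was called higher when arrays were centred on their median or not normalized.

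S100a10, the light chain that joins annexin A2 at the plasma membrane, lay outside the main cluster at chr2:186604339-186604398 on the plus strand. Its probe read 39922, 36004 and 37223 in iPS M13 and 228839, 234881 and 227048 in mix1. Both RNAs gave strong signals and their values did not overlap. The log2 ratio was -2.89, -2.96 and -2.99, a mean of -2.95 ± 0.06 (SD, n = 3; limma, adjusted p = 1.58e-06), or 7.71-fold higher in mix1. Of all probes tested, 7.41% had a ratio at or below this value.

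The array held other probes described as S100a10, or as its older name p11, under other names, so they fell outside the rule. The probe described as the P11 gene, at chr2:186603768-186603827, was lower at -1.63 ± 0.03 (SD, n = 3; limma, adjusted p = 2.60e-06). A pair of probes described as calpactin light chain were placed on chromosome 13 and stood at -1.06 ± 0.04 and -0.54 ± 0.04 (SD, n = 3). The first was called lower and the second was not, and that call was lost in 4 alternative settings. The probes named for S100a10 all had the same sign and sizes from -2.95 to -0.54.

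Of the genes listed as partners of S100a10, Anxa2, Ahnak and Plat were lower, while Trpv5, Trpv6, Kcnk3 and Plg were well above background in neither RNA. Anxa2, the annexin that S100a10 holds, read 4864, 4312 and 4826 in iPS M13 and 170872, 176675 and 171901 in mix1. Its log2 ratio was -5.81 ± 0.06 (SD, n = 3; limma, adjusted p = 6.33e-07), with no overlap. All 3 probes of Ahnak, a giant scaffold protein that binds the complex, were lower, at -3.53, -2.61 and -3.07. Plat, the tissue plasminogen activator, was not well above background in iPS M13 on any array and was at least 22.3-fold lower there. Such a bound divides the bright RNA's mean by whichever is higher in the dim RNA, the probe's signal or the lowest one well above background. It holds only for the loess and Aquantile scaling used here. With median centring the measured log2 ratio of Plat was -4.28, a smaller difference than the bound.

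S100a1, best known as a regulator of calcium cycling in muscle, had 2 probes. The downstream probe, at chr2:182734771-182734835 on the minus strand, read 282, 363 and 326 in iPS M13 and 994, 1333 and 1053 in mix1. The upstream probe, at chr2:182734963-182735022, read 260, 263 and 269 in iPS M13 and 867, 950 and 922 in mix1. All mix1 values lay above all iPS M13 values on both probes. The log2 ratios were -2.42 ± 0.03 (SD, n = 3; limma, adjusted p = 1.19e-06) and -2.38 ± 0.08 (SD, n = 3; limma, adjusted p = 4.89e-06). They differed by 0.05 ± 0.08 (SD, n = 3) and their ranges overlapped, so the order of these probes is not settled.

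S100a13, which takes part in the release of fibroblast growth factor 1 and interleukin 1 alpha, had 1 probe, at chr2:182746589-182746648 on the plus strand. It read 1487, 1806 and 1565 in iPS M13 and 4263, 5546 and 4325 in mix1, with no overlap. The log2 ratio was -2.34 ± 0.02 (SD, n = 3; limma, adjusted p = 8.85e-07), or 5.07-fold higher in mix1. With arrays centred on their median in place of loess, the value was -1.50 and the call held.

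S100a3, a protein known from the hair cuticle, was measured in mix1 alone. Its probe, at chr2:182833461-182833520 on the plus strand, read 101, 115 and 109 in iPS M13, where it was well above background on 0 of 3 arrays, and 245, 314 and 265 in mix1. The values did not overlap. S100a3 was at least 2.28-fold lower in iPS M13, and the measured log2 ratio was -1.67 ± 0.08 (SD, n = 3; limma, adjusted p = 1.02e-05). With the scanner software's processed signals the ratio was -3.37, so the size of this difference rests on how the background is treated.

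By the probes under the members' own names, the order of the ratios from lowest to highest ran from S100a4 through S100a6, S100a10 and S100a1 to S100a13. S100a3 has only a bound in iPS M13 and takes no place in this order. The step from the S100a4 opposite-strand probe to the S100a6 mRNA probe was 2.03 ± 0.14 (SD, n = 3) on the log2 scale. The step from the S100a6 opposite-strand probe to S100a10 was 0.91 ± 0.05, and that from S100a10 to the S100a1 downstream probe was 0.53 ± 0.08 (SD, n = 3). These steps had the same sign on 3 of 3 arrays. The step from the S100a1 upstream probe to S100a13 was 0.03 ± 0.07 (SD, n = 3) with overlapping ranges, so these neighbours do not differ beyond their spread. With the processed signals, or in the authors' deposited table, the S100a1 upstream probe, at -2.70, lay below S100a10, at -2.67. With the GC trend removed, S100a13, at -2.265, lay below the S100a1 probes, at -2.12 and -1.93. The place of S100a10 rests on 1 probe, and the probe described as the P11 gene, at -1.63, lay above S100a1 and S100a13. An exact two-sided sign-flip test on 3 arrays cannot give a p below 0.25, so no test of these steps is given.

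**Figure D2:**
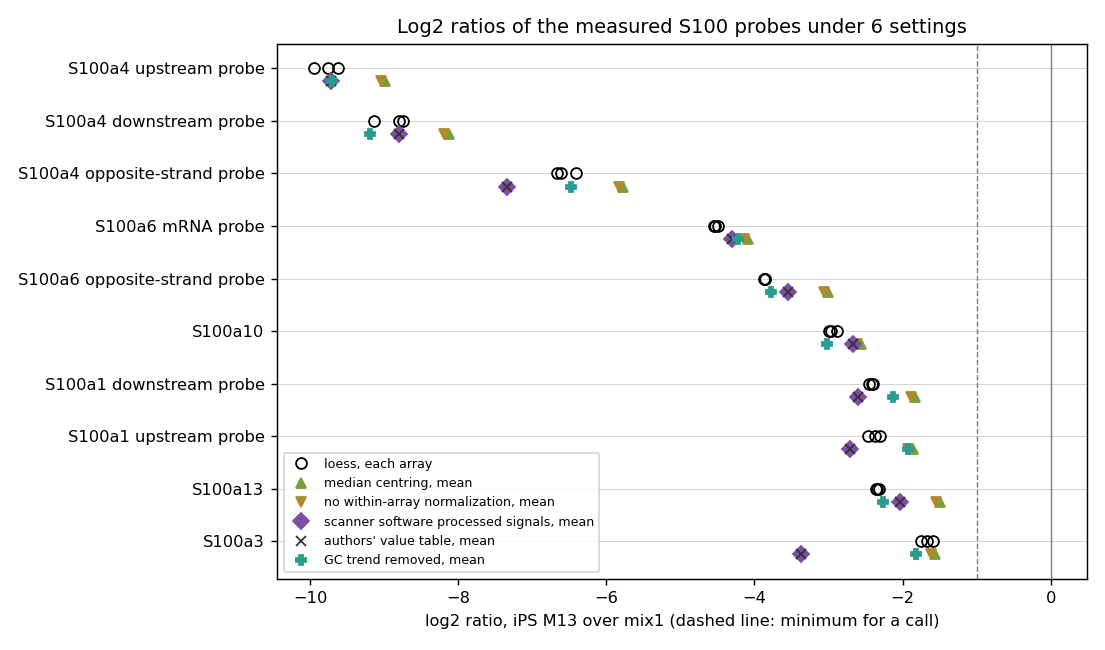
Log2 ratio of iPS M13 over mix1 for the 10 measured S100 probes, with open circles for each of the 3 arrays after loess normalization and filled symbols or crosses for the mean over arrays under 5 other settings; the dashed line at -1 marks the smallest difference called. All points lie left of that line, S100a13 moves to -1.50 with median centring, and S100a3 moves to -3.37 with the processed signals.

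Calprotectin was not detected in either RNA. S100a8, the smaller calprotectin subunit, had 3 probes and none was well above background in iPS M13 or mix1 on any array. Its mRNA probe, at chr2:182912434-182912493 on the plus strand, read 90.1 to 94.6 in iPS M13 and 83.2 to 92.9 in mix1. These values lay among those of the 153 negative control spots of each array, of which 70.6% to 81.7% read lower in iPS M13 and 76.5% to 92.8% in mix1. The 2 S100a8 opposite-strand probes read 84.0 to 99.6 in iPS M13 and 63.5 to 95.7 in mix1, also among the negative controls.

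S100a9, the larger subunit, had 1 probe, at chr2:182937753-182937812 on the minus strand. It read 98.2 to 118 in iPS M13 and 75.5 to 81.4 in mix1. Between 82.4% and 92.2% of the negative controls read lower in iPS M13 and between 74.5% and 82.4% in mix1. Their ratios were not tested, because a probe that is dim in both RNAs has no measured level on either side. What these probes would read in cells that express calprotectin was not measured here.

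The neutrophil markers, read beside these genes, were mostly dim too. Of 12 probes for 11 genes, 8 were not measured, among them those of Mpo, Ltf, Ngp, Mmp8, Csf3r and Fcnb, and 7 probes were well above background on no array in mix1. The summed signal of the list was 1771 to 1971 in iPS M13 and 7831 to 9923 in mix1. Most of the mix1 sum came from Lcn2, which read 6337, 8324 and 6783 there and 193, 213 and 210 in iPS M13. Only the Mmp9 probe of this list was above background in both RNAs on all arrays, at -0.18, and it was not called. Lcn2, a secreted siderophore-binding protein of neutrophils and other cells, was lower in iPS M13 at -5.91 ± 0.05 (SD, n = 3; limma, adjusted p = 6.14e-07). Camp, at its 1 measured probe, was at least 1.66-fold lower there. Lcn2 and Camp passed the filter through mix1 alone, so their calls are no support. Macrophage markers were present in mix1. Of the 15 measured probes of that list, 8 were well above background in iPS M13 on no array and passed the filter through mix1 alone, so their calls are no support. The same holds for Fcgr3a, well above background in iPS M13 on 1 array. The 6 probes above background in both RNAs on all arrays were lower, at -3.67 to -7.49, among them Cd14 at -7.49 and Lyz2 at -7.43. The summed signal was 6404 to 6860 in iPS M13 and 238659 to 278453 in mix1, and 12 of the list's 19 probes were well above background on no array in iPS M13.

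Transcription factors listed for the calprotectin genes in myeloid cells were measured at 6 probes, of which 4 were lower and 0 higher. Among all probes tested, 25.1% were lower. The Cebpb and Spi1 probes passed the filter through mix1 alone, so those calls are no support. Only 3 of the 6 were above background in both RNAs on all arrays. Cebpb was at -5.68 ± 0.03 and Cebpd at -4.36 ± 0.04 (SD, n = 3), and Spi1 was at least 6.31-fold lower in iPS M13 with loess, against a measured ratio of -2.57 with the GC trend removed, which is smaller than that bound. Cebpe, a factor of late granulocyte development, was at -0.07 ± 0.08 (SD, n = 3) and was not called, and Cebpa was not measured. The 2 probes of Stat3 stood at -1.55 and -0.74, with only the first called lower, and that call was lost with median centring or with no normalization within arrays.

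S100b, the member used as a marker of astrocytes and Schwann cells, was printed on 10 spots of each array, at chr20:12792126-12792185 on the minus strand. It read 82.4 to 85.9 in iPS M13 and 71.1 to 76.8 in mix1 as the mean over its spots not marked as outliers. On replicate 2, 1 of the spots left out as outliers read 318 in iPS M13 and 259 in mix1 and was well above background in both. Over all 10 spots that array's means were 108 and 92.3. Of the negative controls, 66.7% to 69.3% read lower in iPS M13 and 69.9% to 73.9% in mix1. By the rule used, S100b was measured in neither RNA. The glial markers Gfap, Aqp4 and Erbb3 were not measured either. Mbp, which encodes myelin basic protein, was called higher in iPS M13 at its 2 probes, at 1.33 ± 0.44 and 1.04 ± 0.13 (SD, n = 3), and the call of the second was lost without replicate 1, at 0.97. The first did not have both RNAs above background on all arrays. The summed signal of the glial list, not scaled between the dyes, was 2961 to 3590 in iPS M13 and 1672 to 1956 in mix1. Of its 10 probes, 5 were well above background on no array in iPS M13 and 4 on no array in mix1.

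Released S100 proteins act through surface receptors, and 7 of the 9 receptor and adaptor genes with a probe were measured. All 7 were lower in iPS M13, with a median log2 ratio of -2.01, where 25.1% of all probes tested were lower. Tlr4, Cd36 and Fgfr1 passed the filter through mix1 alone, so their calls are no support. The 4 above background in both RNAs on all arrays had a median of -1.98. Tlr4, the receptor of calprotectin, read 103, 116 and 101 in iPS M13 and 2655, 3069 and 2488 in mix1. It was not well above background in iPS M13 on any array and was at least 24.4-fold lower there. Its coreceptor Ly96 was at -1.66 ± 0.08 and the adaptor Myd88 at -1.95 ± 0.05 (SD, n = 3). Sdc4, a heparan sulfate proteoglycan, was at -6.95 ± 0.08 (SD, n = 3; limma, adjusted p = 6.98e-07). Bsg, a receptor of S100a9, was at -2.01 ± 0.06 and Fgfr1, a growth factor receptor that S100b can bind, at -5.47 ± 0.14 (SD, n = 3). This Fgfr1 probe was well above background in iPS M13 on 2 of 3 arrays, and the other Fgfr1 probe in neither RNA. Ager, the receptor for advanced glycation end products, was well above background in mix1 on 2 arrays and in iPS M13 on 0, so it was not measured by the rule used.

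Annexins and other binding partners were measured at 30 probes, of which 17 were lower, 1 was higher and 12 were not called, with a median of -1.26. Of all probes tested, 25.1% were lower and 18.5% higher. Plat and an Anxa6 probe passed the filter through mix1 alone, so those calls are no support. The 28 probes above background in both RNAs on all arrays had a median of -1.19. The annexins split. Anxa1, a partner of S100a11, was lower at -6.14 ± 0.12 and -5.56 ± 0.09 (SD, n = 3), and Anxa6 at -5.84 ± 0.03 and -4.46 ± 0.01. Anxa4, Anxa7 and Anxa11 were not called at any probe, with values from -0.81 to -0.08. Anxa5 was called lower at 1 probe, at -1.48, and not at the other, at -0.81, and the call was lost with median centring or with no normalization within arrays. Mdm2, a ubiquitin ligase that S100a4 and S100b can bind, was not called at its 2 probes, at -0.02 and -0.31.

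Among the other EF-hand and calcium sensor genes, 15 of 30 measured probes were lower, 2 were higher and 13 were not called, with a median of -1.06. Over all probes tested 25.1% were lower and 18.5% higher. Capn1, Lcp1 and a Calb1 probe passed the filter through mix1 alone, and Ocm and Gca through iPS M13 alone, so those calls are no support. The 25 probes above background in both RNAs on all arrays had a median of -0.90. Rcn3, a calcium-binding protein of the secretory pathway, was at -5.64 ± 0.03, and the calpain subunit Capn2 stood at -4.74 ± 0.03 and -4.88 ± 0.02 (SD, n = 3). Calm2, a calmodulin gene, was at -0.71 and was not called. Calm3, which encodes calmodulin too, was at 0.99 and 0.51 at its 2 probes and was not called, though both probes were called higher with median centring. Ocm, or oncomodulin, was higher at 1.49 ± 0.11 (SD, n = 3), and Gca, a sorcin relative known as grancalcin, was higher at 1.40 ± 0.18 (SD, n = 3), with mix1 not above background on any array.

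**Figure D3:**
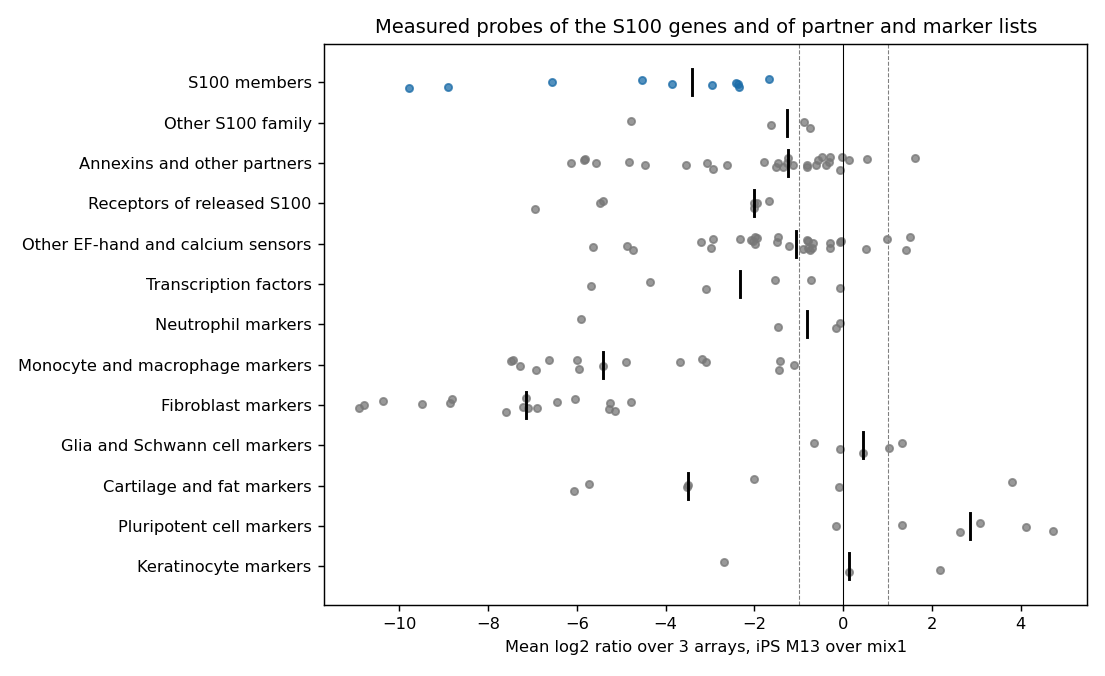
Mean log2 ratio over 3 arrays for every measured probe of the S100 genes, of 5 family and partner lists and of 7 cell type marker lists; points are probes spread vertically at random, black bars are list medians, and dashed lines mark the smallest difference called. The 10 S100 probes lie between -9.78 and -1.67, the fibroblast markers between -10.91 and -4.77, and 5 of the 6 measured pluripotent cell probes lie above 1.

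Pluripotent cell markers ran opposite to the S100 genes. Of 6 measured probes 5 were higher in iPS M13, where 18.5% of all probes tested were, and the median was 2.85. Dnmt3b at 4.10, Cdh1 at 3.08 and Sox2 at 2.62 were above background in both RNAs on all arrays, as was Lin28a. Epcam at 4.72 and Pou5f1 at 1.31 passed the filter through iPS M13 alone, so their calls are no support. For Pou5f1, mix1 was not above background on any array. The Lin28a probe was at -0.15 and was not called. Cartilage cells and fat cells can also hold S100b and S100a1. Of that list's 7 measured probes 5 were lower, where 25.1% of all probes tested were. But 4 were well above background in iPS M13 on no array and passed the filter through mix1 alone, so their calls are no support. Only 2 were above background in both RNAs on all arrays, Comp at -5.74 and Col2a1 at -0.09, which was not called. Adipoq was higher at 3.81, without both RNAs above background on all arrays. The list's summed signal was 6148 to 6319 in iPS M13 and 20476 to 24705 in mix1, and its part in the S100a1 ratios was not tested. The 3 measured keratinocyte probes divided into 1 lower, 1 higher and 1 not called. The lower one was well above background in iPS M13 on no array.

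Most members lie in a single gene cluster. The probes from S100a1 to S100a9 spanned 203 kb of chromosome 2 and the S100a10 probe lay 3869.6 kb from the first. Counted from the first S100a1 probe, at -2.42, the S100a4 upstream probe, at -9.78, lay at 101.8 kb. The S100a8 and S100a9 probes, dim in both RNAs, began at 176.8 kb, at the other end of the cluster. The named genes of no S100 kind that were measured nearby lie before S100a1, outside this stretch. Chtop, the neighbour next to S100a1, which encodes a chromatin target of an arginine methyltransferase, stood at 0.44, 1.24 and 0.21 at its 3 probes, of which 1 was called higher, and all 3 with median centring. Ilf2 was at 0.85 and Snapin at -0.90, and neither was called, though Ilf2 was called higher in 4 alternative settings.

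Other S100 genes that fell outside the rule, in the cluster and elsewhere, were read as well. S100a16, a broadly expressed member, read 826, 975 and 906 in iPS M13 and 12562, 16145 and 13575 in mix1. Its log2 ratio was -4.77 ± 0.03 (SD, n = 3; limma, adjusted p = 5.93e-07), and the values did not overlap. S100a5, which lies between S100a4 and S100a6 and is known from olfactory neurons, was not well above background in iPS M13 and was at least 2.06-fold lower there. A probe described as similar to S100A14 was at 1.00 ± 0.06 (SD, n = 3), just under the smallest difference called, and was called higher in 9 of the alternative settings. S100a7a, S100z and S100vp were above background in neither RNA, and 2 probes described as similar to S100A11, on chromosomes 13 and 17, were not measured either. S100g was well above background in mix1 on 2 arrays and in iPS M13 on 0.

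**Figure D4:**
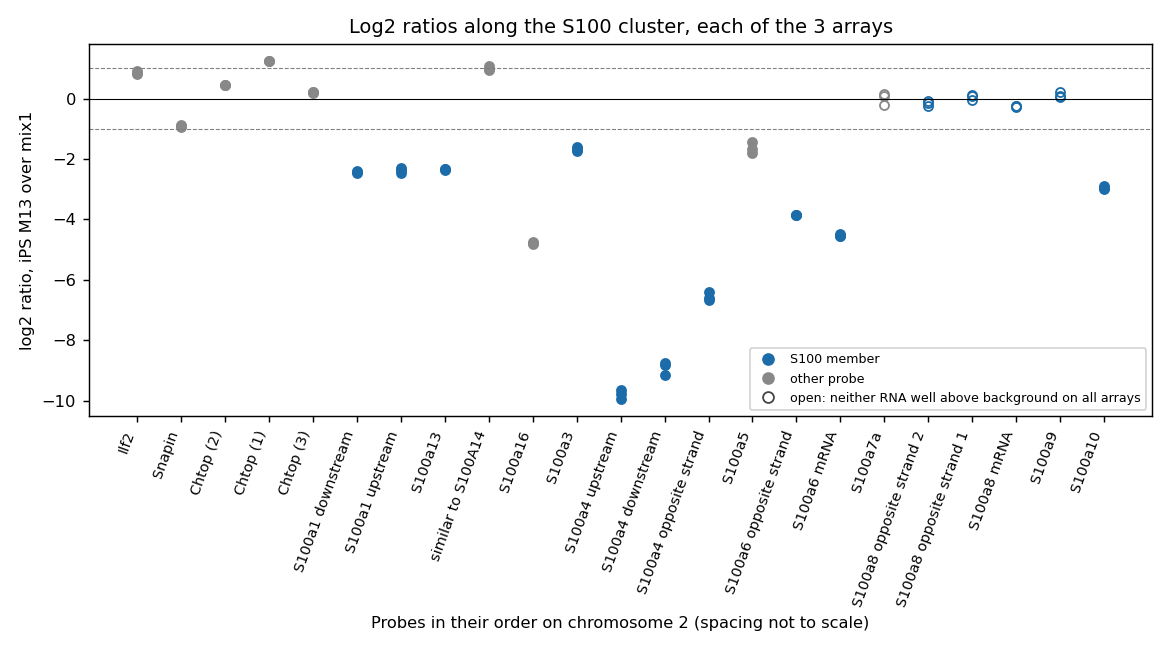
Log2 ratio of iPS M13 over mix1 on each of the 3 arrays for probes in their order on chromosome 2, with spacing not to scale; filled points are measured probes, open points are probes above background in neither RNA on all arrays, blue marks S100 members and grey other probes. The S100a4 probes fall to -9.78, -8.90 and -6.56 while the Chtop, Ilf2 and similar to S100A14 probes lie between 0.21 and 1.24.

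Promoters were looked up in RefSeq on build GRCr8, a later build than that of the probe positions, and 7 of the 10 members had an entry, namely S100a3, S100a4, S100a6, S100a9, S100a11, S100a13 and S100b. The 2 members with the lowest ratios are shown, from 250 bases before the start of the gene to the base before it. Capitals mark the letters TATAAA in S100a4 and GGGCGG in S100a6.
S100a4, chr2:178388279-178388528, plus strand: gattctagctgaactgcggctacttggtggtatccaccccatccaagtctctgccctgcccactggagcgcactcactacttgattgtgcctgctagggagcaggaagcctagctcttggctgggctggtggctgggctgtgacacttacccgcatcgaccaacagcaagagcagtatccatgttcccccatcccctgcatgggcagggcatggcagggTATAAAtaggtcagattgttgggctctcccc
S100a6, chr2:178398287-178398536, plus strand: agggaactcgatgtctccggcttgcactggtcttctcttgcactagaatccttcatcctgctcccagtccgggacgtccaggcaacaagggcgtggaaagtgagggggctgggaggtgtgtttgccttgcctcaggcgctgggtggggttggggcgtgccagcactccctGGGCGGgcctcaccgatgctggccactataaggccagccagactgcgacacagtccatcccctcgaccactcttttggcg

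Windows of 300 bases, from 250 before the start to 50 after it, were searched on both strands for TATAAA, the core of a TATA box, for GGGCGG, the GC box, and for TGANTCA, the AP-1 motif. The S100a4 window held TATAAA 31 bases before the start and no GGGCGG, with 5 CpG pairs and 56.3% G and C. The S100a6 window held GGGCGG 80 bases before the start and no TATAAA, with 15 CpG pairs and 61.3% G and C. S100a9, which was not detected in either RNA, held TATAAA 42 bases before its start. S100a3, S100a13 and S100a11 held GGGCGG, and S100b held none of the motifs. TGANTCA was in 0 of the 7 windows. Of all 33469 promoters of this length, 14.2% held TATAAA, 33.1% GGGCGG and 7.33% TGANTCA, and the median number of CpG pairs was 7. A match is a run of letters and not evidence of binding.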

How the data were processed

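The deposited spot intensities were mean pixel brightness and median local background per channel, with nothing subtracted, from Agilent Feature Extraction 9.5.3.1, per the file headers. The software's processed intensities and its log10 ratios of Cy5 over Cy3 were deposited in the same files, per the file headers. A value table from the authors gave log2 ratios with no stated direction. Against the log10 ratios its columns had slopes of -3.32, so it was read as log2 of Cy3 over Cy5. Its column medians were -0.0413, -0.0282 and -0.0286, and whether it was centred stays unknown.

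With R 4.3.3, limma 3.58.1 and the package data.table in version 1.17.8, background was removed by normexp (offset 50), and loess was run within arrays, giving control spots no weight. Outlier spots, 205, 263 and 192 on the 3 arrays, were left out. No S100 spot was saturated. Spots of a probe were averaged, and a probe had to be well above background in 1 channel, the same on each array. Ratios were tested against 0 with lmFit and eBayes, with Benjamini-Hochberg adjustment over all kept probes. The spread of mix1, a single control RNA, does not enter the test. In bounds, floors were taken per array after loess and Aquantile scaling, at a log2 of 6.96, 6.80 and 7.39 for iPS M13 and 7.35, 4.72 and 7.14 for mix1.

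Every S100 probe is named whatever its result, and list genes with a kept probe may be named; a few list genes are counted but not reported here by name. Members, lists and rules were chosen with earlier results of these data known. Names of 41012 probes were updated through a RefSeq gene table, by accession for 10861, symbol for 5537, synonym for 3704 and gene ID for 1205, and 19705 kept the file's name. The fit was tested on simulated data. Every per-sample column was mapped to a sample. Tables and figures were made in Python 3.11.15 (matplotlib 3.10.9, numpy 2.4.6, pandas 2.3.3). Alternatives were another scaling, background correction, dim-probe filter, outlier rule, GC correction, call rule, and leaving out each array.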

Additional observations from a re-analysis of the deposited data

How the results depend on the processing

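The 10 S100 probes were called lower, and 0 higher, under every alternative tried except the filter on both RNAs, which tested 8 and called all 8 lower. With no filter on dim probes all 15 were tested and the counts were again 10 lower and 0 higher. Without 1 array each, 10 were called lower, and over all probes 6007 to 6099 were called lower and 4378 to 4575 higher. Their median moved between -3.46 and -2.78. The ratio of S100a4 ranged from -9.89 to -8.99 at its upstream probe and that of the S100a6 mRNA probe from -4.54 to -4.08. S100a13 moved from -2.34 to -1.50 with median centring, and S100a3 from -1.67 to -3.37 with the processed signals or the authors' table.

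Scaling changed the balance over all probes. The probes called higher, 4467 with loess, were 8786 with median centring, 8311 with no normalization within arrays, and 7472 with the processed signals and with the authors' table. Higher calls were thus 67.8%, 65.7% and 56.9% of all calls, against 42.5%, and the median of all probes shifted by 0.60, 0.54 and 0.31. With the adjusted p alone, 11784 were lower and 11401 higher. The list probes called fell from 96 to 61 when both RNAs had to be above background, since fewer probes were tested. Median centring turned the sign of small ratios, among them those of Anxa4, Anxa7 and Mdm2. Log2 ratios fell by 0.43 to 0.45 for each 10% more GC in a probe, and removing that trend changed no S100 call. No paired analysis was possible because the samples form 1 group and each array already pairs the RNAs.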
